A study of Mus musculus with 6 samples.

Results

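The insulin-like growth factor (IGF) system of primary oviductal muscle cells was examined through 10 genes: the ligands Igf1 and Igf2, the receptors Igf1r and Igf2r, and the binding proteins Igfbp2, Igfbp3, Igfbp4, Igfbp5, Igfbp6 and Igfbp7. They were chosen by symbol, as the rows of the deposited count table whose Ensembl identifiers map to these names, and all 10 were found among its 54232 genes. RNA-seq had been performed on smooth muscle cells of mouse oviducts on day 2 (D2) of pregnancy, in 3 WT and 3 Pbrm1 cKO libraries. The product of Pbrm1 belongs to a SWI/SNF complex that remodels chromatin, and the comparison asked which genes depended on it in these cells. Per the study's methods, cKO mice were Pbrm1 fl/fl; PR-IRES-cre/+, with cre expressed from the progesterone receptor locus and so only in cells that use that locus. The labels call the controls WT, whereas a legend of the study names Pbrm1 fl/fl females. All females were 8 to 12 weeks old and had mated, and the labels give no strain. In the study's methods the strain prefix of the cre line is B6.129S(Cg). It is not stated how many animals made up a library, so p-values measure only the spread between these libraries. The oviducts were digested with enzymes and the filtered cells were kept for some hours in medium with serum before RNA was made.

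IGF1 and IGF2 are small secreted hormones related to insulin. Both act through the tyrosine kinase receptor encoded by Igf1r, which signals through PI3K and AKT and through MAP kinases, while the receptor encoded by Igf2r carries IGF2 to lysosomes. The binding proteins hold the ligands outside the cell, where they can lengthen their life, block them or, once cut by proteases, release them. IGF1 is known to drive growth of smooth muscle.

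Libraries held between 15390818 and 18947947 counts, so that 3 counts, taken as the floor for a single library, were worth between 0.159 and 0.193 CPM (counts scaled by library size and TMM factors). This covers counting error only. Pbrm1 was at 170, 183 and 172 CPM in WT replicates 1, 2 and 3 and at 43.5, 50.7 and 42.7 CPM in the cKO replicates, so every library matched its label, and the cKO mean was 26.0% of the WT mean. The smooth muscle genes Tagln, Acta2, Myh11, Des, Cnn1, Smtn, Actg2 and Myocd were all tested and summed to between 3435 and 3505 CPM in WT and between 4187 and 4666 CPM in cKO libraries. Defining markers of fibroblasts, macrophages and epithelium were present too, so the cells were not of 1 type. In such bulk samples, fewer cells of a type and less RNA per cell cannot be told apart.

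Of the 10 members, 9 carried enough counts to be tested, and 5 of these 9 (55.6%) differed between the groups at an edgeR adjusted p under 0.05. Igfbp6 and Igfbp7 were higher in cKO cells, whereas Igf1, Igfbp2 and Igfbp3 were lower. Over all 15376 tested genes, 43.7% were called, 21.9% higher and 21.8% lower, so the members' share lay near that of the whole table. Their median log2 fold change was -0.06, beside 0.00 (0.0016) over all tested genes, and their median absolute log2 fold change was 0.29, beside 0.22. The changes of the 5 called members went in both directions.

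**Figure D1:**
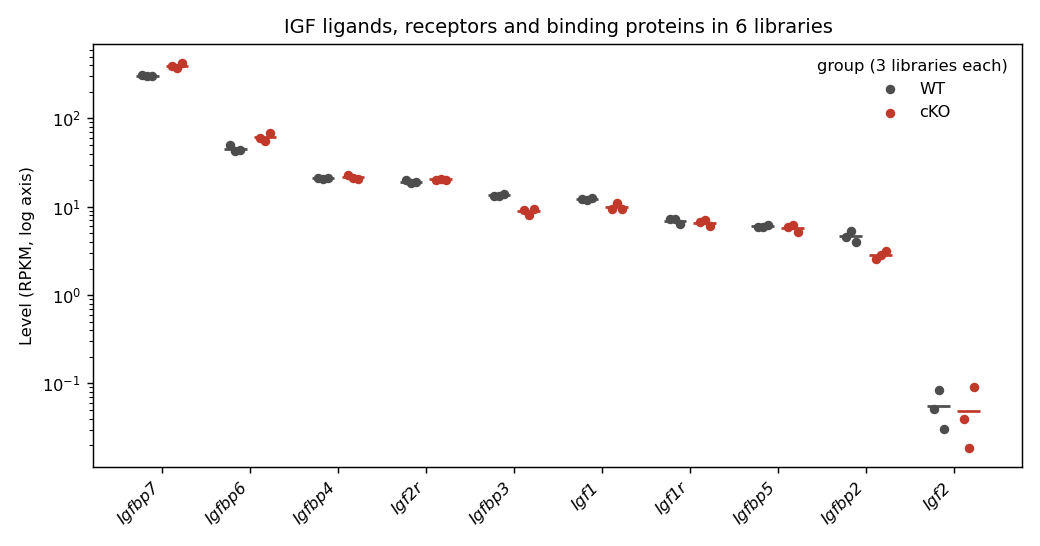
Level of each member in each library, as RPKM (CPM per kilobase of exon) on a log axis, with 3 WT (grey) and 3 cKO (red) libraries per gene, and horizontal lines are group means. Igfbp7 sits far above the rest at 303 RPKM in WT and 395 RPKM in cKO, 8 further genes lie between 2.59 and 68.7 RPKM, and Igf2 lies under 0.1 RPKM in all 6 libraries over its full exon length, which is a lower bound, since per base on which its reads could be counted it lies between 0.0499 and 0.242 RPKM.

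Igf1 was the only ligand measured above the floor in every library. Igf1 (ENSMUSG00000020053.18, plus strand of GRCm38 chromosome 10 from 87858265 to 87937042) was at 120.4, 117.5 and 125.5 CPM in WT and at 92.7, 109.8 and 93.9 CPM in cKO libraries. All cKO libraries were below all WT libraries, and cKO replicate 2 lay closest to WT. The mean fell from 121 ± 4.05 CPM to 98.8 ± 9.52 CPM (SD, n = 3), or 81.6% of WT, with a log2 fold change of -0.29 (SE 0.06, edgeR adjusted p = 0.00183). Leaving out cKO replicate 2 or any other single library left the change negative and past the threshold, with log2 fold changes between -0.37 and -0.25 over 14 other fits and a highest adjusted p of 0.0142.

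Igf2, the fetal growth factor that is expressed from the paternal allele in most tissues, was near the limit of detection. It (ENSMUSG00000048583.16, minus strand of chromosome 7 from 142650766 to 142666816) was counted 5, 9 and 3 times in the WT libraries and 4, 2 and 8 times in the cKO libraries. The counts of the groups overlapped, 1 WT library was at the floor and 1 cKO library below it, and the gene did not pass the filter on low counts, so no fold is given. Its count covers only part of the gene. Of its 5723 exon bases, 3596 (62.8%) are shared with Gm49394 on the same strand, and reads that overlap both genes were dropped by the counting. Gm49394 itself took 1 count in all libraries together. Thus the low count refers to the remaining 2127 exon bases, and the level of Igf2 over all its exons is a lower bound. Igf2os, on the opposite strand, had 9 counts in the 6 libraries and was not tested either.

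The noncoding gene H19 lies 72.6 kb from Igf2 in the same imprinted cluster and is expressed from the maternal allele. It was abundant in contrast. H19 was at 145, 152 and 140 CPM in WT and at 130, 103 and 125 CPM in cKO libraries. Its ranges did not overlap, and it fell by 0.29 on the log2 scale (SE 0.07, edgeR adjusted p = 0.00432). Without cKO replicate 2 the log2 fold change of H19 was -0.19 (edgeR adjusted p = 0.00369). Ins2, the insulin gene beside Igf2, was listed at 0 in all 6 libraries, and Igf1os, antisense to Igf1, had 5 counts in all.

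The receptors did not pass the test. Igf1r, the signaling receptor (ENSMUSG00000005533.10, plus strand of chromosome 7 from 67952827 to 68233668), was at 121.2, 121.5 and 107.5 CPM in WT and at 111.7, 118.1 and 102.3 CPM in cKO libraries. The groups overlapped, and the log2 difference was -0.08 with a 95% interval from -0.21 to 0.06 (edgeR adjusted p = 0.35). Igf2r, the clearance receptor (ENSMUSG00000023830.13, minus strand of chromosome 17 from 12682406 to 12769664), was at 187.3, 177.1 and 178.4 CPM in WT and at 190.5, 195.1 and 192.2 CPM in cKO libraries. Its cKO libraries all lay just above its WT libraries, but the log2 difference of 0.09 (95% interval -0.003 to 0.18) had an edgeR adjusted p of 0.108. Igf2r is imprinted in the mouse, and its antisense transcript Airn was at 2.96, 2.94 and 2.87 CPM in WT and at 2.14, 1.80 and 2.51 CPM in cKO libraries. The Airn ranges did not overlap, with a log2 difference of -0.45 (SE 0.18, edgeR adjusted p = 0.0619), which among 14 other fits passed the threshold only when cKO replicate 3 was left out (adjusted p = 0.0458).

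Per length, Igf2r stood above Igf1r in every library. The ratio of their RPKM was 2.75, 2.59 and 2.95 in WT and 3.03, 2.94 and 3.34 in cKO libraries, and the groups overlapped. The ratio of Igf1 RPKM to Igf1r RPKM was 1.68, 1.64 and 1.98 in WT and 1.41, 1.57 and 1.56 in cKO libraries. Here the groups did not overlap, with means of 1.77 ± 0.184 and 1.51 ± 0.0916 (SD, n = 3). The ratio mixes the level of ligand mRNA with that of receptor mRNA, and no test was made on it, since 3 against 3 libraries cannot give an exact permutation p under 0.1. The size of both ratios also depends on the gene length used, here that of the count table.

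Among the 6 binding proteins, 2 fell, 2 rose and 2 did not pass the test. The pair that fell had the lowest and a middle level per length. Igfbp2, a carrier known for binding IGF2 with high affinity (ENSMUSG00000039323.18, plus strand of chromosome 1 from 72824503 to 72852474), was at 8.45, 9.94 and 7.43 CPM in WT and at 4.78, 5.20 and 5.79 CPM in cKO libraries. The groups stood clearly apart, and the mean fell from 8.61 ± 1.26 to 5.26 ± 0.508 CPM (SD, n = 3) and so to 61.1% of its WT value. Its log2 fold change of -0.72 (SE 0.14, edgeR adjusted p = 0.000787) was the largest in size among the 9 tested members. Over all tested genes, 11.5% differed by more than this.

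Igfbp3, the main IGF carrier of serum (ENSMUSG00000020427.11, minus strand of chromosome 11 from 7206086 to 7213923), was at 41.4, 41.4 and 43.7 CPM in WT and at 28.8, 25.3 and 29.8 CPM in cKO libraries. No cKO library reached WT, and replicate 2, which was nearest to WT for Igf1, was here the farthest from it. Igfbp3 was 66.4% of WT, with means of 42.2 ± 1.31 and 27.98 ± 2.36 CPM (SD, n = 3) and a log2 fold change of -0.59 (SE 0.07, edgeR adjusted p = 1.5e-05). Igfbp1, whose gene ends 3.54 kb from Igfbp3 and which is a carrier made by liver and decidua, had 0 counts in all 6 libraries. With 3 counts as the floor, this allows up to 0.193 CPM in the shallowest library.

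The pair that rose held the most abundant members per length. Igfbp6, a carrier that prefers IGF2 over IGF1 (ENSMUSG00000023046.6, plus strand of chromosome 15 from 102144362 to 102149511), was at 55.1, 48.0 and 48.9 CPM in WT and at 67.6, 61.1 and 76.4 CPM in cKO libraries. The lowest cKO library exceeded the highest WT library, and cKO replicate 2 was again the closest to WT. The mean rose from 50.7 ± 3.84 to 68.4 ± 7.68 CPM (SD, n = 3), a log2 fold change of 0.43 (SE 0.08, edgeR adjusted p = 0.000591). Between the same libraries 8 of 11 fibroblast, 5 of 6 pericyte, 9 of 10 leukocyte and 6 of 9 oviduct epithelium markers rose. Over all tested genes 21.9% rose and 21.8% fell. In the fibroblast list 1 marker fell, and in the pericyte list 1 fell. Of 8 smooth muscle, 8 endothelium and 7 mesothelium markers, 4, 2 and 1 rose, and 1, 1 and 4 fell. The part of these shifts in the rise of Igfbp6 and Igfbp7 was not tested.

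Igfbp7, a matrix-associated protein of vessels and stroma with weak affinity for IGFs (ENSMUSG00000036256.13, minus strand of chromosome 5 from 77349240 to 77408041), was at 372, 363 and 365 CPM in WT and at 475, 448 and 510 CPM in cKO libraries. WT libraries lay within a narrow band and the cKO libraries were all above it. The mean rose from 367 ± 4.99 to 478 ± 31.3 CPM (SD, n = 3), 130% of WT, with a log2 fold change of 0.38 (SE 0.05, edgeR adjusted p = 4.0e-05). Its exons share 85 of 1209 bases with Polr2b on the other strand, which the reverse-stranded counting keeps apart.

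The last pair of binding proteins did not pass the test. Igfbp4, a carrier that blocks IGF action until it is cut by the protease PAPP-A (ENSMUSG00000017493.12, plus strand of chromosome 11 from 99041244 to 99054392), was at 93.5, 91.9 and 93.2 CPM in WT and at 101, 92.9 and 90.1 CPM in cKO libraries. Its groups overlapped, and the log2 difference of 0.03 had a 95% interval from -0.08 to 0.14 (edgeR adjusted p = 0.67). Igfbp5, a carrier that binds extracellular matrix (ENSMUSG00000026185.8, minus strand of chromosome 1 from 72857932 to 72874884), was at 35.9, 35.5 and 36.9 CPM in WT and at 35.0, 37.7 and 30.7 CPM in cKO libraries. Here too the groups overlapped, with a log2 difference of -0.06 and a 95% interval from -0.22 to 0.09 (edgeR adjusted p = 0.52). Igfbp2 and Igfbp5 are neighbors on chromosome 1 whose 3′ ends lie 5.46 kb apart, and of this pair only Igfbp2 was called, but the difference between their changes was not tested.

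**Figure D2:**
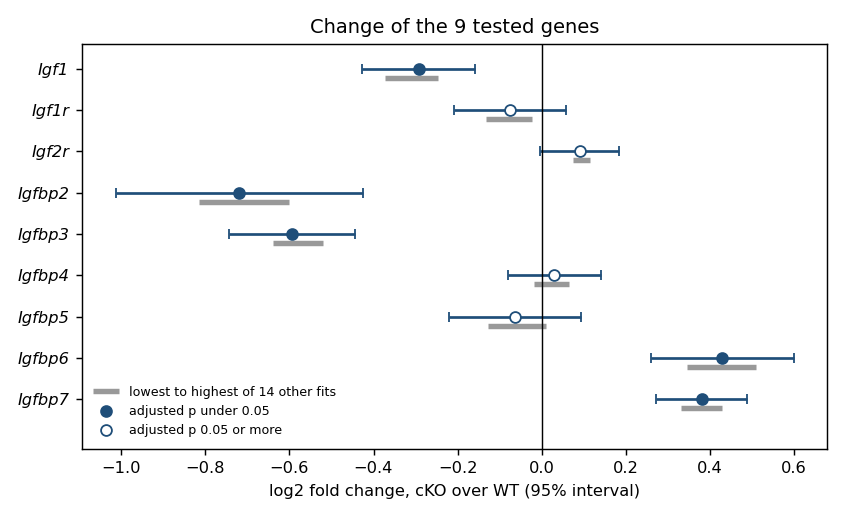
Log2 fold change (cKO over WT) of the 9 tested members from edgeR, with 95% intervals as bars; filled points have an adjusted p under 0.05, and each grey bar runs from the lowest to the highest value of 14 other fits. Igfbp2 (-0.72), Igfbp3 (-0.59) and Igf1 (-0.29) lie left of 0 and Igfbp6 (0.43) and Igfbp7 (0.38) right of it in every fit, while the grey bars of Igfbp4 and Igfbp5 cross 0.

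The groups did not overlap for 6 of the 9 tested members, namely the 5 that were called and Igf2r. Over all tested genes this was so for 53.5%. Of the 5 called members, cKO replicate 2 was the cKO library nearest to the WT mean for Igf1, Igfbp6 and Igfbp7, and replicate 3 for Igfbp2 and Igfbp3. Replicate 2 held that place for 56.6% of the 6723 called genes of the whole table, against 21.9% for replicate 1 and 21.5% for replicate 3, and it had the highest Pbrm1 level of the cKO libraries. Whether the Pbrm1 level of replicate 2 bears on its nearness to WT was not tested. All 5 members remained called when cKO replicate 2 was left out.

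The proximal promoters of the 4 binding proteins that changed are shown so that the 2 pairs can be compared by sequence. Each window holds the 250 bases before a RefSeq start site (build GRCm38.p6, read 5′ to 3′ on the strand of the gene). RefSeq windows were found for all 10 members, and the start sites lie 23, 0, 176 and 4 bases from the gene starts of the count table for Igfbp2, Igfbp3, Igfbp6 and Igfbp7. Capitals mark 4 motifs searched on both strands: TATAAA (the box bound by TBP), CCAAT (bound by NF-Y), GGGCGG (bound by SP1) and CACGTG (E-box).
Igfbp2, chr1:72824230-72824479, plus strand: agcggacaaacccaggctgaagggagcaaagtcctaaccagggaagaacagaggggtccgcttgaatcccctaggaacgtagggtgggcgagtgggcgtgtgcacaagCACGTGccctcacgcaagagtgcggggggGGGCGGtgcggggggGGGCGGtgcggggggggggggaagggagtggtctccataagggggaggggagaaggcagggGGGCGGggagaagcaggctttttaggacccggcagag
Igfbp3, chr11:7213924-7214173, minus strand: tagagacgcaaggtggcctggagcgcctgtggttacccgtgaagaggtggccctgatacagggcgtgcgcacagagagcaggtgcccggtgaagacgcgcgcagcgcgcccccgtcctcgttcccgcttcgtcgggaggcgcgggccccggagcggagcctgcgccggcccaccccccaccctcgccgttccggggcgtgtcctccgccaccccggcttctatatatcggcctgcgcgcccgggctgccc
Igfbp6, chr15:102143936-102144185, plus strand: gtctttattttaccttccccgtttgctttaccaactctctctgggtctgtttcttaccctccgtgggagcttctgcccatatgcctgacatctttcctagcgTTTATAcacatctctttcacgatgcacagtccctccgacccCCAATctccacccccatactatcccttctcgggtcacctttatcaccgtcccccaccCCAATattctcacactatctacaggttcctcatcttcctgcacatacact
Igfbp7, chr5:77408046-77408295, minus strand: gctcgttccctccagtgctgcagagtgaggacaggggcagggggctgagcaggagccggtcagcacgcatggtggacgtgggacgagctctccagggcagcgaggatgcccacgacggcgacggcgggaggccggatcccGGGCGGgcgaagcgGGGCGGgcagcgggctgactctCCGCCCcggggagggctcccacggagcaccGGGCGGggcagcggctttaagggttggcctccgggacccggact

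By these letters the windows did not divide as the changes did. GGGCGG was found at 3 places for Igfbp2, which fell, and at 4 for Igfbp7, which rose, and it occurs in 32.7% of the 32851 RefSeq windows of this length. For Igfbp7 the matches begin 110, 96, 74 and 44 bases before the start. Igfbp6 held CCAAT at 107 and 50 bases before the start, a motif of 33.8% of windows, and the reverse complement of TATAAA at 148 bases, a motif of 12.4%. CACGTG, found in 6.02% of windows, stood once in the Igfbp2 window at 142 bases. The Igfbp3 window held none of the 4, which says only that these letters are not in it. Base composition of these windows separated Igfbp6 from the others: it had 49.6% G and C and 7 CG dinucleotides, near the medians of 52.4% and 6 over all windows. Its window precedes a start site 176 bases upstream of the gene start of the count table. It therefore does not hold the bases just before that gene start, and their composition was not examined. Igfbp2, Igfbp3 and Igfbp7 had 67.2%, 73.2% and 74.0% G and C, with 14, 32 and 26 CG dinucleotides. A second RefSeq start of Igfbp2, 884 bases inside the gene, held none of the motifs. Among the other members, TATAAA was found only for Igfbp4, 28 bases before the start.

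Levels between members can be compared only per length. In RPKM averaged over the 6 libraries, the order was Igfbp7 (349), Igfbp6 (53.5), Igfbp4 (21.3), Igf2r (19.8), Igfbp3 (11.2), Igf1 (11.1), Igf1r (6.77), Igfbp5 (5.88) and Igfbp2 (3.75). Igfbp7 was 6.52 times the next member, and 62 of the 15376 tested genes had a higher RPKM. The median tested gene was at 4.80 RPKM, so Igfbp2 was the only tested member below it. Some neighbors in this order were not separated. Igfbp4 and Igf2r overlapped in cKO libraries, as did Igf1r and Igfbp5, although in both cases the WT libraries did not. Igfbp3 was above Igf1 in 3 of 3 WT libraries (13.5 ± 0.419 against 12.2 ± 0.408 RPKM, SD, n = 3), whereas in cKO libraries their ranges overlapped and Igfbp3 was above Igf1 in 1 of 3 (8.94 ± 0.755 against 9.97 ± 0.961 RPKM). This pair exchanged places when any single WT library was left out of the average, and also when the length of the longest transcript was used.

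The sum of the carriers was higher in every cKO library. Summed over Igfbp2 to Igfbp7, RPKM was 402.5, 388.6 and 391.3 in WT and 494, 463 and 529 in cKO libraries. Without Igfbp7 the sum was 94.5, 88.5 and 89.2 RPKM in WT and 101, 93.1 and 107 RPKM in cKO libraries, and the groups overlapped. Igfbp7 took 76.5%, 77.2% and 77.2% of the summed carrier RPKM in WT and 79.5%, 79.9% and 79.8% in cKO libraries. Its share did not overlap between the groups, at 77.0% ± 0.395 and 79.7% ± 0.217 (SD, n = 3). The share of Igfbp3 was 3.42% ± 0.140 in WT and 1.80% ± 0.0599 in cKO, and that of Igfbp2 was 1.18% ± 0.183 and 0.575% ± 0.0449. The share of Igfbp6 in the summed RPKM overlapped between the groups, at 11.6% ± 0.653 and 12.4% ± 0.572, whereas in the summed CPM it did not, at 8.48% ± 0.518 and 9.63% ± 0.593. Shares sum to 100%, so Igfbp4 and Igfbp5, which were not called, also took smaller shares in cKO cells, at 4.35% ± 0.426 and 1.17% ± 0.193, than in WT cells, at 5.34% ± 0.0660 and 1.53% ± 0.0442. No test was made on the shares or sums.

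**Figure D3:**
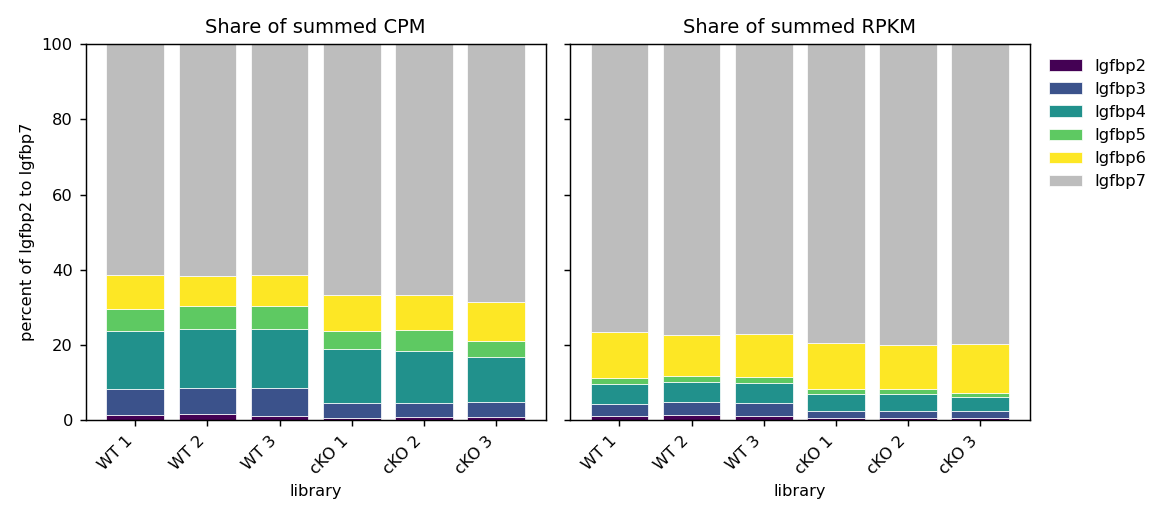
Share of each of the 6 IGF binding proteins in their sum, for each library, from CPM (left) and from RPKM (right); the bars of a library add to 100%. By RPKM, Igfbp7 (grey) takes between 76.5% and 77.2% in WT and between 79.5% and 79.9% in cKO libraries, while the Igfbp2 and Igfbp3 segments are smaller in all 3 cKO libraries.

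Other genes of the pathway and, in the last list, neighbors of the members' loci were read from the same fit. The 6 lists hold 82 genes, of which 74 were tested, 24 rose and 17 fell. The called share was 55.4%, beside 43.7% over the whole table, with a median log2 fold change of 0.01. Of 11 tested proteases and stabilizers that act on IGF carriers 6 rose and 3 fell, with a median of 0.36. The summed CPM of this list overlapped between the groups, at 1613 to 1653 in WT and 1465 to 1660 in cKO libraries. Those that fell were Adam12 by 0.26 (edgeR adjusted p = 0.000397), Prss23 by 0.26 (edgeR adjusted p = 0.00163) and Adamts1 by 0.23 (edgeR adjusted p = 0.041). Their WT means were 419.5, 385.2 and 287.5 CPM. Pappa, the protease that cuts IGFBP4 when IGF is bound, was at 73.6, 63.3 and 72.9 CPM in WT and at 112.5, 100.6 and 107.1 CPM in cKO libraries. Every cKO library was above every WT library, and the gene rose by 0.61 on the log2 scale (SE 0.06, edgeR adjusted p = 5.09e-06). Pappa2, which cuts IGFBP3 and IGFBP5, was scarce and went from 0.515 ± 0.0802 to 1.25 ± 0.170 CPM (SD, n = 3), a rise of 1.29 on the log2 scale (edgeR adjusted p = 0.00343). Htra3, a serine protease with an IGFBP-like domain, rose by 0.78 (edgeR adjusted p = 5.43e-07), and the membrane proteases Adam9 and Adam28 rose by 0.45 (edgeR adjusted p = 0.000114) and 0.69 (edgeR adjusted p = 0.0228). Stc1, an inhibitor of PAPP-A and not a protease, rose by 0.36 (edgeR adjusted p = 0.0382). Adam28 and Stc1 were not called by DESeq2 on all 6 libraries (adjusted p = 0.0694 and 0.0918), and their edgeR calls also depended on single libraries. Adam28 was lost without WT replicate 1 (adjusted p = 0.0952) or cKO replicate 2 (adjusted p = 0.0579). Stc1 was lost without WT replicates 1 or 2 (adjusted p = 0.151 and 0.0611) and without cKO replicates 1 or 2 (adjusted p = 0.0696 and 0.132). Igfals, the subunit that stabilizes the serum complex, had 5 counts in all and was not tested.

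Of 14 tested receptors and adaptors of the insulin and IGF family, 2 rose and 4 fell, with a median log2 fold change of -0.11. The called share of 42.9% lay near the 43.7% of all tested genes. The insulin receptor gene Insr was at 41.0, 39.3 and 38.2 CPM in WT and at 39.2, 38.1 and 37.1 CPM in cKO libraries, which overlapped (log2 difference -0.05, edgeR adjusted p = 0.526). Grb10 and Grb14 encode adaptors that dampen signaling of the receptors, and they fell by 0.28 (edgeR adjusted p = 0.000292) and 0.51 (edgeR adjusted p = 0.0162) on the log2 scale. Irs1, the adaptor that links the receptors to PI3K, fell by 0.32 (edgeR adjusted p = 0.033), but its groups overlapped. Ddr1, a collagen receptor that associates with the IGF1 receptor, rose by 0.47 (edgeR adjusted p = 0.000123), the adaptor Shc1 rose by 0.23 (edgeR adjusted p = 0.000629) and the integrin subunit Itgb3 fell by 0.24 (edgeR adjusted p = 0.00509). Irs1 was no longer called without WT replicates 2 or 3 (adjusted p = 0.0566 and 0.143) or without cKO replicates 1 or 3 (adjusted p = 0.136 and 0.116), nor was Grb14 without WT replicate 2 (adjusted p = 0.0853). Without cKO replicate 2 the log2 fold change was -0.32 for Grb14 and -0.49 for Irs1.

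In the branch from PI3K to FOXO and mTOR, 7 of 27 genes rose and 5 fell, and the called share of 44.4% lay near that of the table. The split was 6 and 7 with upper-quartile scaling. The catalytic subunit gene Pik3cb fell by 0.55 (edgeR adjusted p = 0.000155) and Mtor, the kinase of both mTOR complexes, fell by 0.40 (edgeR adjusted p = 7.98e-05). The regulatory subunit gene Pik3r1 rose by 0.43 (edgeR adjusted p = 3.47e-05), and Inpp5d, a lipid phosphatase of blood cells, by 0.48 (edgeR adjusted p = 0.000289). Leukocyte markers rose between the same libraries, 9 of 10 of them, beside 21.9% of all tested genes. Their part in the rise of Inpp5d was not tested. Eif4ebp1, a translation repressor that mTOR inactivates, rose by 0.39 (edgeR adjusted p = 0.000185).

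Of 12 genes that FOXO factors raise when the receptors are quiet, 7 rose and 1 fell, with a median of 0.30. The called share was 66.7%, beside 43.7% of all tested genes. Among the FOXO genes, Foxo1 fell by 0.25 on the log2 scale (edgeR adjusted p = 0.00431), and Foxo3 and Foxo4 were not called. Whether FOXO activity or receptor signaling differed was not tested. Ccng2, a cyclin of nondividing cells, went from 20.2 ± 0.668 to 34.6 ± 4.90 CPM (SD, n = 3), with no overlap between the groups, and rose by 0.77 (edgeR adjusted p = 1.98e-05). Sesn1, an inhibitor of mTOR complex signaling, rose by 0.52 (edgeR adjusted p = 0.000245), and Txnip, which restrains glucose uptake, by 0.40 (edgeR adjusted p = 2.44e-05). Klf15, a transcription factor of muscle and liver metabolism, rose by 0.79 (edgeR adjusted p = 0.0177), and Pik3ip1, an inhibitor of PI3K, by 0.59 (edgeR adjusted p = 0.0399). Cited2, a transcriptional coregulator, went the other way and fell by 0.65 (edgeR adjusted p = 1.05e-06). Without WT replicate 2 the list held 5 calls in place of 8. Klf15 and Pik3ip1 were at under 3 CPM in each group, and DESeq2 called neither of them (adjusted p = 0.069 and 0.107) and 6 of the list in place of 8. Their edgeR calls were lost when single libraries were left out, Klf15 without WT replicates 2 or 3 (adjusted p = 0.0795 and 0.061) or cKO replicate 1 (adjusted p = 0.0766), and Pik3ip1 without WT replicates 1 or 2 (adjusted p = 0.124 and 0.126) or cKO replicate 3 (adjusted p = 0.165).

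Of 5 tested mRNA regulators and further family members, 2 rose and 1 fell, with a median of 0.50. The called share was 60%, beside 43.7% of all tested genes. Igf2bp2, which binds the mRNA of Igf2 among others, was at 82.1, 80.8 and 77.6 CPM in WT and at 134.5, 111.7 and 126.4 CPM in cKO libraries, and rose by 0.63 (edgeR adjusted p = 3.4e-06). Kazald1, which holds an IGFBP-like domain, rose by 0.85 from a low level (edgeR adjusted p = 0.00217). Esm1, an endothelial proteoglycan with such a domain, fell by 1.21 (edgeR adjusted p = 3.33e-05), from 57.9 ± 2.53 to 24.8 ± 8.78 CPM (SD, n = 3). Of the 6 tested locus neighbors 3 fell, H19 among them, and none rose (edgeR, 4 had an unadjusted p under 0.05 and DESeq2 called 3), with a median of -0.47. Their called share of 50% lay near the 43.7% of all tested genes, of which 21.8% fell. The tensin gene Tns3 lies 1218 kb from Igfbp3 and fell by 0.49 (edgeR adjusted p = 0.00062), and Tns4 lies 11.3 kb from Igfbp4 and fell by 1.58 (edgeR adjusted p = 7.7e-05), whereas Igfbp4 itself was not called. Each of these counts is a description of its list, and no set test was made.

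**Figure D4:**
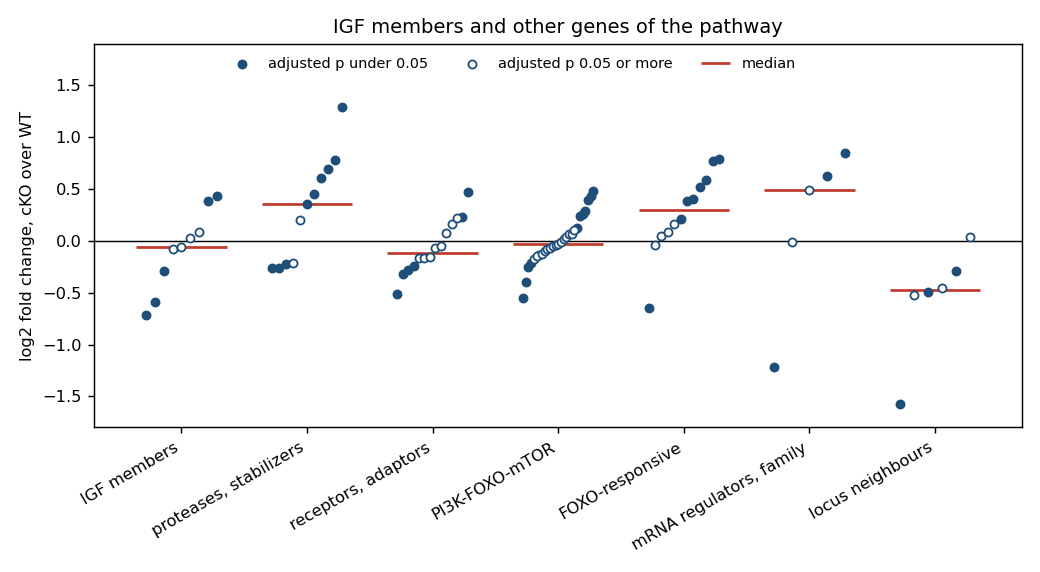
Log2 fold change (cKO over WT) of the 9 tested members and of the tested genes of 6 lists, the last of which holds locus neighbors, sorted within each list. Filled points have an edgeR adjusted p under 0.05 and red lines are medians. The median lies at 0.36 for proteases and stabilizers, 0.30 for FOXO-responsive genes, -0.11 for receptors and adaptors and -0.47 for locus neighbors, and the members lie on both sides of 0.

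Markers of cell types were read from the same fit. Over all tested genes 43.7% were called, 21.9% higher and 21.8% lower. The called share was 81.8% for fibroblast, 90% for leukocyte, 100% for pericyte and 66.7% for oviduct epithelium markers. It was 37.5% for endothelium, 71.4% for mesothelium and 62.5% for smooth muscle markers. Of 11 tested fibroblast markers 8 rose and 1 fell (median log2 fold change 0.69), and their sum was between 6519 and 7231 CPM in WT and between 9732 and 10010 CPM in cKO libraries, with Col1a1, which was not called, and Col1a2, which rose, the most abundant. Of 10 tested leukocyte markers 9 rose and none fell (edgeR, 9 had an unadjusted p under 0.05 and DESeq2 called 9), with a median of 0.81, and their sum went from between 737 and 793 CPM to between 1149 and 1211 CPM, with Lyz2 and Csf1r the most abundant, while the T and B cell genes Cd3e and Cd79a were too low to test. Of 6 tested pericyte markers 5 rose and 1 fell (median 0.57, sums 440 to 474 and 532 to 632 CPM). The most abundant were Pdgfrb, which rose, and Cspg4, which was the 1 that fell. Of 9 oviduct epithelium markers 6 rose and none fell (edgeR, 6 had an unadjusted p under 0.05, DESeq2 called 5 and edgeR called 3 without WT replicate 1), with a median of 0.17 and sums of 834 to 906 and 1008 to 1123 CPM, with Krt8 and Krt18 the most abundant. Of 8 endothelium markers 2 rose and 1 fell (median -0.03, sums 319 to 343 and 270 to 281 CPM). The most abundant were Kdr, which was the 1 that fell, and Pecam1, which was not called. Of 7 mesothelium markers 1 rose and 4 fell (median -0.37, sums 331 to 340 and 352 to 383 CPM). The most abundant were Krt19, the 1 that rose, and Wt1, which was not called, so the sum was higher in cKO although more markers fell. Of 8 smooth muscle markers 4 rose and 1 fell (median 0.17), with Tagln and Acta2 the most abundant. No marker was at 0 in all libraries. The part of these shifts in the changes of Igf1, Igfbp2, Igfbp3, Igfbp6 and Igfbp7 was not tested.

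Genes with the most similar pattern over the 6 libraries are named as a description only, since all points share the group difference and the depth of the same libraries. For Igf1, the highest Pearson correlations of log2(CPM + 0.5) among 10609 protein-coding genes at 5 CPM or more were with Zdhhc16 (r = 0.999), Rbmx (r = 0.995) and Ppil4 (r = 0.994), with correlations of the deviations from group means of 0.995, 0.982 and 0.980. For Igfbp7 they were with Mmp23 (r = 0.999), Fkbp8 (r = 0.998) and Ifit2 (r = 0.998), with 0.994, 0.977 and 0.976 for the deviations. With 6 libraries such values are common: 415 genes exceeded 0.95 for Igf1 and 1118 for Igfbp7.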

How the data were processed

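Total RNA from 3 WT and 3 Pbrm1 cKO preparations of D2 oviductal muscle cells was sequenced by the authors as strand-selected libraries. Per the labels, reads were trimmed with cutadapt and aligned with HISAT2 to GRCm38; per the file headers, the deposited whole-number counts per gene were made with featureCounts 1.6.4, reverse-stranded, on GENCODE M18, with defaults that drop reads of several genes or places. Of 54232 rows, 54079 received a symbol, and no row lacked a gene.

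Groups were compared by the quasi-likelihood F-test of edgeR 4.0.16 (R 4.3.3, TMM, filterByExpr by group, two-sided, Benjamini-Hochberg over 15376 genes, threshold 0.05). The biological coefficient of variation was 5.32%, and replicate pairs differed by more than sampling noise (chi-square per gene 1.27 to 1.57). CPM used the same library sizes, and RPKM the length in the table. Intervals are 95%. Scripts were tested on simulated data. DESeq2 1.42.0, limma-voom (limma 3.58.1), 3 other scalings, 2 other filters, 2 other thresholds, a block for the replicate number, removal of each library in turn and other gene lengths were alternatives. The members and lists were chosen with earlier results of these data known. All members, the up to 6 called genes with the largest change per pathway list, Igfbp1, Pappa, H19, Igf2os and Airn, the 2 most abundant genes per marker list and the 3 genes most similar to Igf1 and Igfbp7 are named. Insr, Igfals, Ins2, Igf1os, Gm49394, Cd3e and Cd79a were named after their values were seen. So were Adam12, Prss23, Adamts1, Foxo1, Foxo3 and Foxo4. A gene that the rule names is not reported here. Promoters came from RefSeq (GRCm38.p6). No amino acid sequences were used here.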

Additional observations from a re-analysis of the deposited data

How the results depend on the processing

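Calls for the members held under every other fit. In 126 comparisons of the 9 tested members with 14 other fits, 124 kept direction and side of the threshold, and the exceptions were sign changes of genes that were never called: over fits that left out 1 library, Igfbp4 ranged from -0.019 (without cKO replicate 1) to 0.065 and Igfbp5 from -0.127 to 0.010 (without cKO replicate 3). The number of members called was 5 in each of those fits and at an adjusted p under 0.01. The thresholds of a fold over 1.5, p under 0.01 and adjusted p under 0.1 left Igfbp2 and Igfbp3, 2 of 9 members, and 2002 of all genes. They left 4 proteases and stabilizers, 3 FOXO-responsive genes and 1 locus neighbor. They left 0 receptors and adaptors and 0 genes of the PI3K branch in edgeR, where 7 and 14 had an unadjusted p under 0.05, and DESeq2 with these thresholds also called 0 and 0. Over fits that left out 1 library, all genes called ranged from 5532 to 7054 and FOXO-responsive genes from 5 to 9, the lowest without WT replicate 2. With the length of the longest transcript the share of Igfbp7 was 75.4% in WT and 78.7% in cKO, and 7 of 9 members kept their place in the order of RPKM. Of the results on levels that were checked with this length, 18 moved and 10 stayed the same. Levels, ratios and shares per length thus depend on the gene length used. Of 511 comparisons for the other genes named by the rule, 464 kept call and direction, 46 lost the call and 1 gained it. Exon bases not shared with another gene on the same strand were also used as length, an alternative added after seeing the data. No tested member shares such bases, so this alternative could not change their values and says nothing on their stability. Same-numbered libraries deviated from their group means with correlations of -0.0243, 0.0353 and 0.0928. With 3 libraries per group these values cannot decide whether the numbers mark a shared day or batch, which is not stated. With the replicate number as a block, 6908 genes and 5 members were called, and 6617 of these genes were also called without the block. Igf2 had at most 9 counts in a library on the exon bases left to it and was not tested. The number of libraries, 3 per group, limits small differences such as that of Igf2r.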
